A study of Mus musculus with 2 samples.

Results

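The genes described here encode the SNARE proteins that fuse membranes, together with the complexins, the Munc18 proteins and their relatives, and the factors that take SNARE complexes apart. They were chosen by name. The rule took every line of the count tables whose symbol is a numbered syntaxin (Stx), syntaxin-binding protein (Stxbp), vesicle-associated membrane protein (Vamp) or complexin (Cplx), plus Snap23, Snap25, Snap29, Snap47, Nsf, Napa, Napb and Napg. It found 42 of 32531 gene lines, and the rule uses symbols and no measured value.

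Membranes fuse when a SNARE on the vesicle zips together with SNAREs on the target membrane into a bundle of helices. At the synapse the vesicle brings a VAMP, and the presynaptic membrane brings a syntaxin and SNAP-25, the last of which contributes a pair of helices. Munc18 proteins hold and template the syntaxin, complexins bind the assembled bundle and regulate the release triggered by calcium, and the ATPase NSF with its adaptors, the SNAP proteins Napa, Napb and Napg, pulls the used bundle apart. Other syntaxins and VAMPs do the same work inside the cell, on endosomes, lysosomes, the Golgi and the endoplasmic reticulum.

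The RNA came from the dentate gyrus of adult mice carrying Lypd1-EGFP/Rpl10a (line OI82), with no treatment. TRAP (translating ribosome affinity purification) pulls down ribosomes that carry Rpl10a fused to EGFP, here expressed under the regulatory sequence of Lypd1, so the RNA is that bound to ribosomes of the cells in which the transgene is active. There was 1 group of 2 libraries, both pull-downs, and no input or second condition was analysed here. No difference between conditions can therefore be tested, no p-value is given, and each value is a level in the purified RNA and not an enrichment. Whether separate animals gave the replicates is unstated, and their spread may therefore be technical.

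Replicate 1 held 31309643 counts on gene lines and replicate 2 held 32711412. The counts of the libraries differed by 67.8 times the chi-square expected from sampling per degree of freedom, so they are not 1 library deposited under both names. All 5 dentate granule cell markers were detected and summed to 2194 and 2312 counts per 1000000 gene counts (CPM) in replicates 1 and 2. The GABAergic neuron markers, with 3 of 7 detected, summed to 76.0 and 122 CPM, and the CA pyramidal cell markers, with 4 of 4 detected, to 121 and 90.2 CPM. The mossy cell markers, with 2 of 3 detected, summed to 6.74 and 2.90 CPM. Among glia, oligodendrocyte markers (4 of 4 detected) summed to 163 and 119 CPM, astrocyte markers (3 of 4) to 26.3 and 30.5 CPM and microglial markers (0 of 4) to 1.76 and 0.978 CPM, neither C1qa nor C1qb having a single count. Endothelial markers (2 of 3 detected) summed to 13.9 and 14.4 CPM. What RNA of these other cells adds to any level below was not tested, and fewer cells of a type cannot be told apart from less RNA per cell.

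Several members come as close relatives, so the coding sequences show how far reads can be assigned to one and not the other. The windows below are the 60 aligned coding bases with the most matches in each of 3 pairs, from GENCODE M21 transcripts of GRCm38, written 5′ to 3′ with the bases that differ in capitals. They cover 3 of the 6 pairs compared below, and in each the gene written first had the higher level.
Vamp2: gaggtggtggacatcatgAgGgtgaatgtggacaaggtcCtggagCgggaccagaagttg
Vamp1: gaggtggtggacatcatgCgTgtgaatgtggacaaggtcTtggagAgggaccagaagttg
Cplx2: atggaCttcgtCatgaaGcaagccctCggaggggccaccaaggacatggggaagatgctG
Cplx1: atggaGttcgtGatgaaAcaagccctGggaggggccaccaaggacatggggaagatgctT
Snap25: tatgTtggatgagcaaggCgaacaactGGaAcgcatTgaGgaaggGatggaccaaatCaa
Snap23: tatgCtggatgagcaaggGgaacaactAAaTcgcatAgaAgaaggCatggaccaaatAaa
Even in these windows the Vamp pair differed at 4 bases, the complexin pair at 5 and the Snap pair at 9. Over all aligned coding bases the identity was 77.2% for Vamp2 and Vamp1, 79.6% for Cplx2 and Cplx1 and 66.5% for Snap25 and Snap23. No stretch of 50 coding bases was shared within any of these pairs.

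Most members were present. A gene counted as detected at 1 CPM or more in both libraries, and 34 of the 42 members (81.0%) were, against 38.1% of all gene lines. A mean of 100 CPM or more was reached by 16 members, against 6.81% of all gene lines. The same shares of all gene lines, 38.1% and 6.81%, are the background for the counts by group below. The median over all 42 members, undetected ones included, was 57.3 CPM, and the median over detected genes alone was 22.5 CPM. Together the members took 2.43% of gene counts in replicate 1 and 2.32% in replicate 2. These counts were concentrated in a few genes, since the 4 members with the most counts, Snap25, Cplx2, Vamp2 and Nsf, held 77.7% and 76.4% of them.

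**Figure D1:**
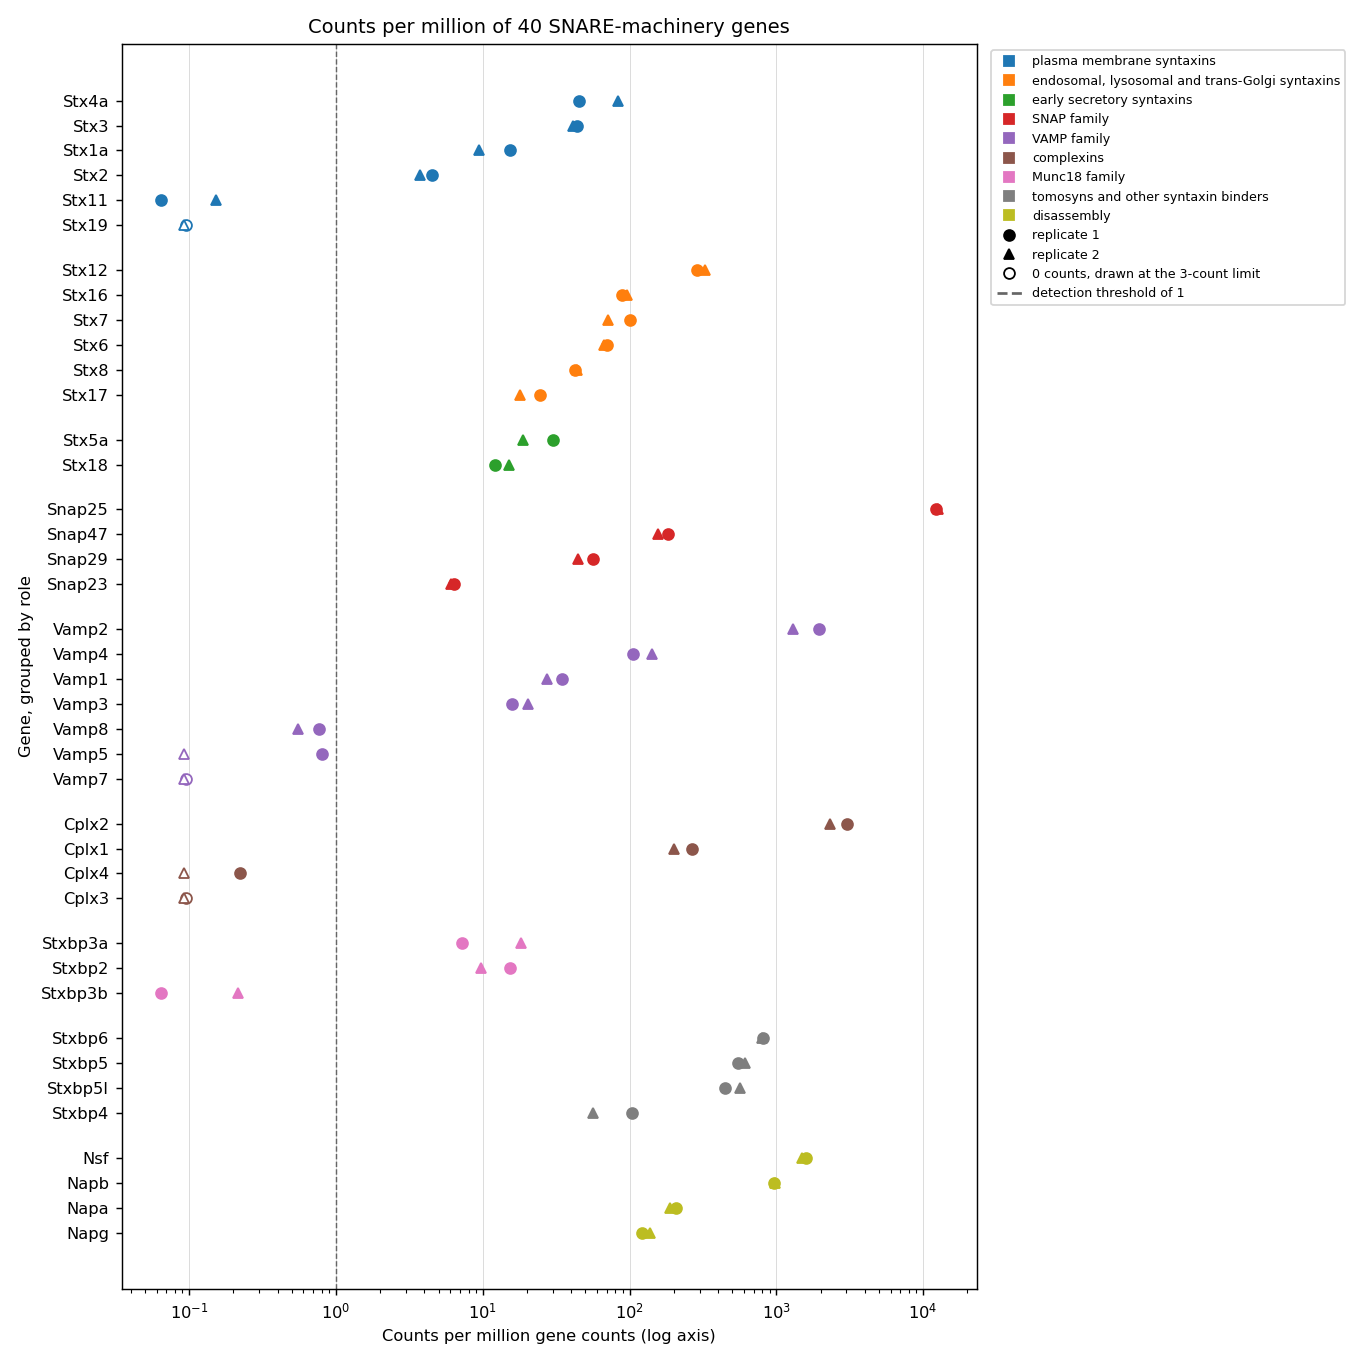
CPM (log axis) of 40 members, grouped by role, with circles for replicate 1 and triangles for replicate 2. Open symbols mark 0 counts and are drawn at the CPM that 3 counts would give, and the dashed line is the detection threshold of 1 CPM; Snap25 stands alone at the right, at 12303 and 12586 CPM.

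A long transcript yields more reads than a short one, and genes are therefore compared with each other below in CPM per kilobase of exon, using the union of all annotated exons. On that scale Snap25 led with 1812 in replicate 1 and 1853 in replicate 2. Cplx2 (544 ± 100.1 CPM per kilobase, SD, n = 2) and Vamp2 (426 ± 118) followed, with overlapping ranges. Below them came Nsf (186 ± 7.96), the syntaxin binder Stxbp6 (152 ± 1.99) and the NSF adaptor Napb (138 ± 2.56), in that order and with no overlap between neighbours. Cplx1 (107 ± 21.1) and Stx12 (96.8 ± 8.12) overlapped. Of the 33 pairs of neighbours among the detected members, 23 overlapped, so most of the lower order is not resolved. Among the relatives discussed below, the levels were 63.9 ± 6.64 for Snap47, 59.4 ± 9.64 for Stxbp5l, 52.2 ± 3.58 for Napa and 35.1 ± 2.50 for Stxbp5. Low in the order were Stxbp4 (6.77 ± 2.87), Stx1a (4.66 ± 1.59), Stx5a (4.20 ± 1.39), Vamp1 (3.05 ± 0.503), Stxbp3a (2.38 ± 1.45) and Snap23 (1.45 ± 0.0449). Of these 6, all but Stxbp4 had a mean below the median of all detected genes, which was 5.16. By counts, the ranks among all gene lines ran from 90 for Napb, 215 for Stxbp5 and 257 for Stxbp5l, through 802 for Cplx1, 999 for Napa and 1213 for Snap47, to 2675 for Stxbp4 and 3274 for Stx4a. Vamp1 (5270), Stx5a (5979), Stxbp3a (7810), Stx1a (7868) and Snap23 (9589) ranked lowest of those. The median of detected members was 21.2 CPM per kilobase, and 25 of the 34 members stood above the median of all detected genes. Divided by the longest transcript in place of all exons, Snap25 stayed first and Vamp2 (736) moved above Cplx2 (544). On that measure Napb (220) also moved above Stxbp6 (177). Per kilobase of coding sequence, Stxbp6 (1279.5) and Napb (1087) both stood above Nsf (694). The order of Nsf, Stxbp6 and Napb therefore depends on the length measure.

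**Figure D2:**
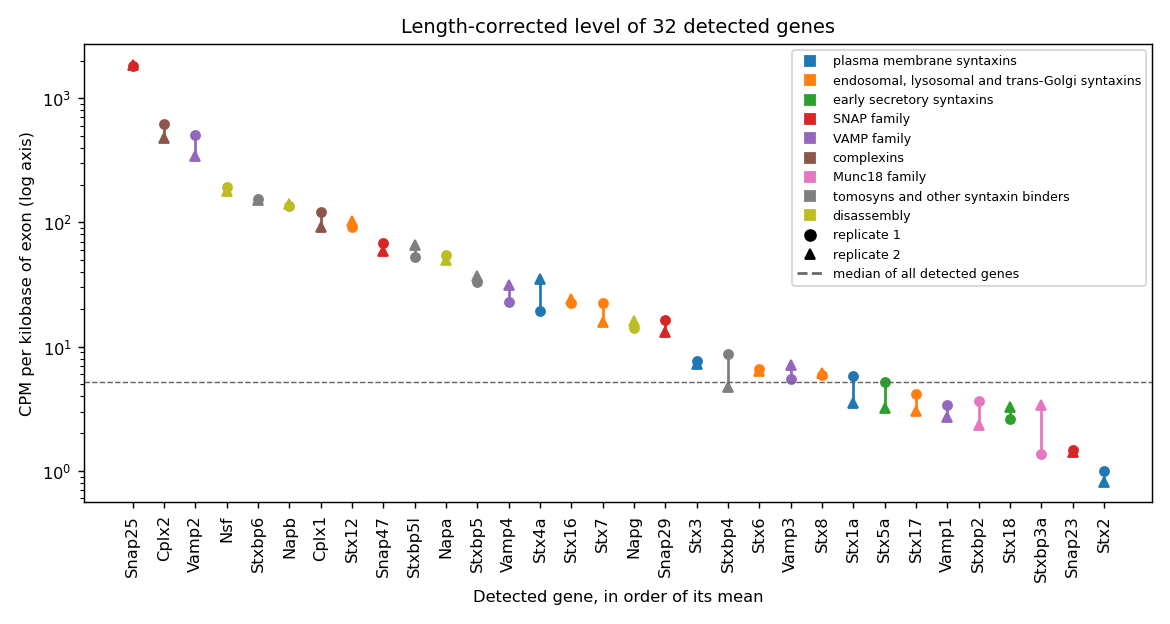
Level in CPM per kilobase of exon (log axis) of 32 of the 34 detected members, in order of the mean, with circles for replicate 1, triangles for replicate 2 and a line joining them. The dashed line is the median of all detected genes (5.16), and 23 of the genes drawn have a mean above it.

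The SNAP family was almost entirely Snap25. This gene on chromosome 2 (136713453 to 136782428, plus strand, GRCm38) encodes the presynaptic membrane partner of syntaxin, with 12303 CPM (replicate 1) and 12586 CPM (replicate 2). It ranked 3 among all gene lines by counts and was the source of 98.1% and 98.4% of its family's counts. Its transcript forms are counted together, so its alternative exons cannot be told apart. The log2 ratio of replicate 2 to replicate 1, with library totals scaled by the trimmed mean of M-values (TMM), was 0.13. Snap47, a relative found on intracellular membranes, was at 182 and 157 CPM (log2 ratio -0.12). Snap29, which serves in several intracellular fusion steps including that of autophagosomes, was at 56.2 and 44.8 CPM. Snap23, the form of most non-neuronal cells, had 199 counts in each library (6.36 and 6.08 CPM, log2 ratio 0.03). Per kilobase, Snap25 stood 1266 ± 59.5 times (SD, n = 2) above Snap23 and 28.9 ± 3.46 times above Snap47. An exon overlap with Jmjd4 on the opposite strand covers 11.6% of the exon bases of Snap47, and reads there could not be assigned without a strand setting.

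Vamp2 was the dominant VAMP. It encodes synaptobrevin, the vesicle SNARE of fast transmitter release, lies on chromosome 11 (69088490 to 69092384, plus strand) and gave 1940.1 CPM (replicate 1) and 1304 CPM (replicate 2), rank 34 of all gene lines. It made up 92.5% of VAMP counts in the first library and 87.2% in the second, and the log2 ratio of replicate 2 to replicate 1, on the same scaling, was -0.48. Its close relative Vamp1, which is prominent in spinal cord and motor nerve terminals, was at 34.6 and 27.4 CPM, with a log2 ratio of -0.25. Per kilobase, the level of Vamp2 was 138 ± 15.9 times that of Vamp1. Vamp4, a SNARE of the trans-Golgi network and endosomes, came second in the family with 105 and 143 CPM, and Vamp3, the broadly used cellubrevin, was at 15.9 and 20.5 CPM. Vamp2 was higher in replicate 1 while Vamp4 and Vamp3 were higher in replicate 2, none of them by 1.5-fold. In the share of VAMP counts, Vamp4 was at 5.01% (exact 95% interval 4.85 to 5.18) in replicate 1 and 9.55% (9.30 to 9.82) in replicate 2. These intervals cover counting error only, and not the spread between libraries. The share also moves with Vamp2, which had 60744 and 42644 counts.

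The remaining VAMPs were below detection. Vamp8, an endosomal and secretory granule SNARE known mostly from non-neuronal cells, had 24 and 18 counts. Vamp5, known from muscle, had 25 counts in replicate 1 and 0 in replicate 2. Vamp7, a SNARE of late endosomes and growing neurites, had 0 counts in both libraries. The limit that 0 counts allow is 3 counts, or 0.0958 CPM in replicate 1 and 0.0917 CPM in replicate 2. In GRCm38 the gene sits on an unlocalised scaffold, GL456233.1 (10738 to 39148, minus strand), and whether reads were aligned to that scaffold is not given in the sources used here. Its 0 is therefore a property of these tables, and the level of the message was not tested.

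Of the 7 syntaxins of the plasma membrane 5 were detected. Stx1a, a presynaptic syntaxin that pairs with SNAP-25, was scarce at 15.4 CPM in the first library and 9.45 CPM in the second. Stx4a, which encodes the syntaxin 4 of constitutive and regulated exocytosis, was at 45.4 and 82.9 CPM, a log2 ratio of 0.96 (95% counting interval 0.87 to 1.06). Of the exon bases of Stx4a, 5.25% overlap exons of another gene on the opposite strand, and what they add to its count was not tested. Stx3, which serves ribbon synapses and postsynaptic receptor delivery, was steady at 44.1 and 41.2 CPM. Stx2 was low at 4.54 and 3.76 CPM, Stx11, a syntaxin of cytotoxic lymphocytes, had 2 and 5 counts, and Stx19 had 0 counts in both libraries.

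Complexins were represented by 2 of 4 genes. Cplx2, the rank 15 gene on chromosome 13 (54371349 to 54383917, plus strand), stood at 3032 and 2334 CPM (replicates 1 and 2), and Cplx1 at 267 and 201 CPM. Both were lower in replicate 2, by log2 ratios of -0.28 and -0.31, and their proportion hardly moved. Per kilobase, Cplx2 was 5.05 times Cplx1 in replicate 1 and 5.15 times in replicate 2, the steadiest ratio of the 6 pairs compared. Cplx3 and Cplx4, known from retinal ribbon synapses, were not detected. Cplx3 had 0 counts in both libraries and Cplx4 had 7 counts in replicate 1 and 0 in replicate 2.

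The Munc18 family members with broad or immune roles were low. Stxbp2, the form needed by cytotoxic lymphocytes and mast cells, was at 15.3 and 9.66 CPM. Stxbp3a, the ubiquitous form that works with syntaxin 4, was at 7.25 CPM and then 18.2 CPM. The second library thus held the higher level of Stxbp3a. Stxbp3b, which RefSeq lists as an older symbol of the pseudogene Stxbp3-ps, had 2 and 7 counts. Of the 50-base stretches in its transcript, 70.9% also occur in transcripts of the parent gene, which shares 9.27% of its own, and reads from such stretches can fall into the class of non-unique alignments.

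Of the other syntaxin binders, Stxbp6 and both tomosyns had over 100 CPM in both libraries, and Stxbp4 in replicate 1 alone. Stxbp6, or amisyn, carries a SNARE motif without a membrane anchor and competes with VAMP for syntaxin and SNAP-25. Its level was 814 and 799 CPM. The tomosyns Stxbp5 and Stxbp5l, which use a VAMP-like motif to hold back priming, were at 551 and 609 CPM and at 448 and 564 CPM, with log2 ratios of 0.24 and 0.42. Their order depends on the length measure: the ratio of Stxbp5l to Stxbp5 was 1.69 ± 0.155 per kilobase of exon but 0.870 in counts and 0.819 per kilobase of coding sequence. Stxbp4, or synip, which binds syntaxin 4, was at 104 and 56.1 CPM, so the libraries disagree about its level.

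The disassembly machinery was fully represented, with all 4 genes above 100 CPM. Nsf, the ATPase that unwinds spent SNARE complexes, lies on chromosome 11 (103821782 to 103954056, minus strand), ranked 38 and was at 1597 and 1503 CPM, with a log2 ratio of 0.00 (95% counting interval -0.01 to 0.02). Its adaptor Napb, the brain form of the SNAP adaptors, was at 959 and 985 CPM (log2 ratio 0.13). The broadly expressed Napa was at 207 and 188 CPM (log2 ratio -0.05), and Napg was at 121 and 137 CPM. Per kilobase, Napb was 2.65 ± 0.231 times Napa. No gene of this group differed by 1.5-fold between the libraries, against 12.7% of all genes with a mean of at least 100 CPM. With 4 genes, that count says little about the group. The group held 11.9% and 12.1% of member counts.

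**Figure D3:**
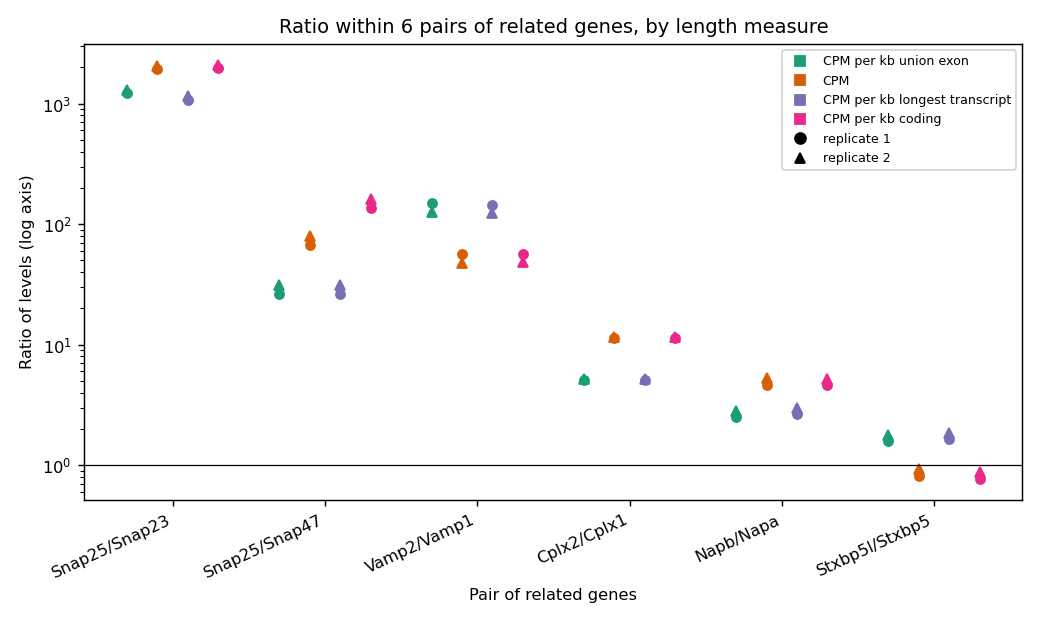
Ratio of levels (log axis) within 6 pairs of related genes, with circles for replicate 1, triangles for replicate 2 and a colour for each length measure. The order within a pair held under every measure shown except for Stxbp5l and Stxbp5, and the largest ratio was that of Snap25 to Snap23 (1266 ± 59.5 per kilobase of exon).

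All 8 syntaxins of the endosomal and secretory routes were detected. Stx12, a syntaxin of recycling endosomes, was the highest of them with 290.2 and 327 CPM, and per kilobase it made up 62.3 ± 3.59% of the endosomal, lysosomal and trans-Golgi group. Stx16 and Stx6, both of the trans-Golgi network, were at 88.2 and 96.2 CPM and at 70.0 and 67.2 CPM. The late endosomal pair Stx7 and Stx8 was at 100.5 and 71.1 CPM and at 42.2 and 44.0 CPM. Stx17, which autophagosomes use to fuse with lysosomes, was at 24.6 and 17.9 CPM. In the early secretory route, the Golgi syntaxin Stx5a was at 30.1 and 18.7 CPM and the endoplasmic reticulum syntaxin Stx18 at 12.0 and 15.1 CPM. The count of Stx18 is uncertain, since 32.3% of its exon bases overlap Nsg1 and an unnamed gene model on the opposite strand.

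The libraries were then compared gene by gene, as the log2 ratio of replicate 2 to replicate 1 with totals scaled by TMM. This compares libraries and not conditions. Of the 34 members with a mean of at least 1 CPM, 5 differed by 1.5-fold or more (14.7%), against 26.9% of all such genes. The 2 members higher in replicate 2 compare with 12.6% of genes, and the 3 higher in replicate 1 with 14.3%. Among genes with a mean of at least 100 CPM, 0 of 16 members passed 1.5-fold, against 12.7% of genes. The median log2 ratio of members was 0.02 and that of all genes -0.01. Ratios were above 0 for 18 members (52.9%), against 49.2% of all genes. With library totals alone, a scaling that lowers every log2 ratio by 0.09, they were above 0 for 14 members (41.2%). The 49.2% does not apply to that scaling. The median log2 ratio of all genes was then -0.10, and their share above 0 was not counted.

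Among the 34 members compared, those with a mean of at least 1 CPM, Stxbp3a had the widest difference, with 227 counts against 596 and a log2 ratio of 1.41 (counting interval 1.20 to 1.65). It was also the single one of the 34 past 2-fold, against 10.3% of all genes compared. Members below that minimum, such as Vamp5 with 25 and 0 counts, were not compared. Stx4a followed in the same direction at 0.96. These are the genes of a syntaxin and a Munc18 protein known to bind each other, and a link between their differences was not tested. Stxbp4, which also binds syntaxin 4, was higher in replicate 1 (-0.80, interval -0.88 to -0.72). The other members higher in replicate 1 were Stx1a (-0.61, interval -0.83 to -0.41) and Stx5a (-0.59, interval -0.74 to -0.44), whose intervals reach across the 1.5-fold line. Marker sums of other cells differed between the libraries as well, at 6.74 and 2.90 CPM for mossy cells, 76.0 and 122 CPM for GABAergic neurons, 163 and 119 CPM for oligodendrocytes and 121 and 90.2 CPM for CA pyramidal cells, and their part in these differences was not tested. Within the GABAergic list the markers were split, with Gad1 (50.02 and 75.6 CPM) and Gad2 (19.7 and 42.8 CPM) higher in replicate 2 and Sst (3.16 and 2.17 CPM) and Lhx6 (2.14 and 0.734 CPM) higher in replicate 1.

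**Figure D4:**
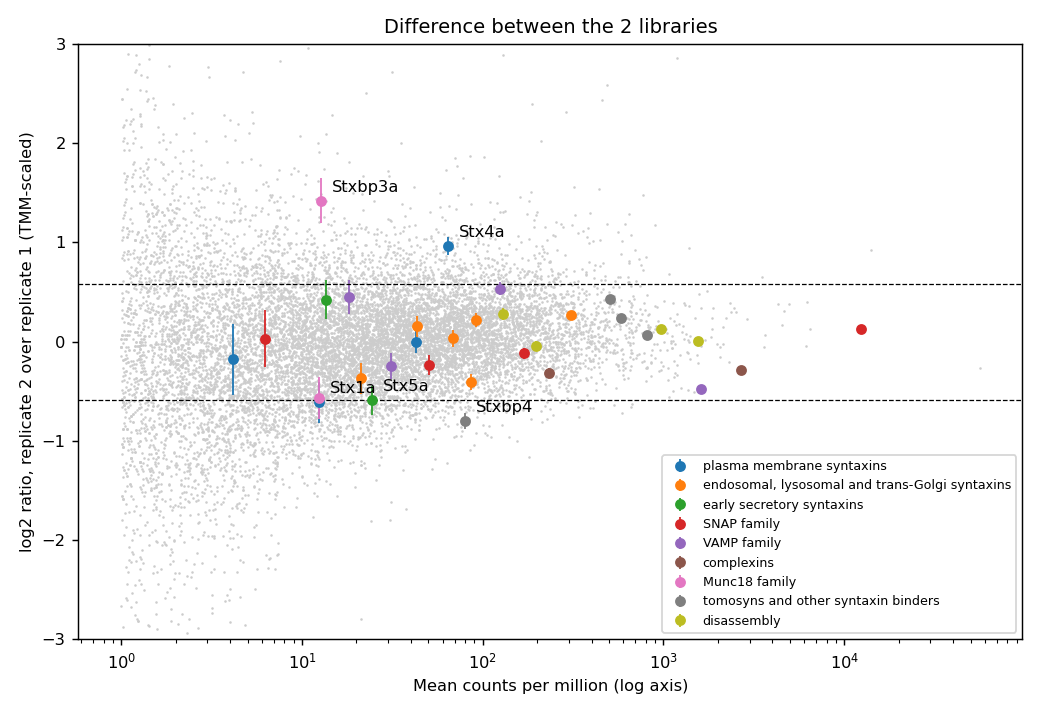
Log2 ratio of replicate 2 to replicate 1 against mean CPM (log axis) for genes with a mean of at least 1 CPM (grey) and for 32 of the 34 members (coloured by role, bars are 95% counting intervals). Dashed lines mark 1.5-fold, the 5 members past it are named, and 66 grey genes lie beyond the axis.

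Other genes of the fusion pathway were taken from 3 lists, and 30 of their 31 genes were detected, against 38.1% of all gene lines. All 12 SNAREs that the rule does not match were detected, with a median of 37.0 CPM, led by Sec22b, a SNARE of endoplasmic reticulum traffic (221 and 170 CPM), and Vti1a of the endosomes and Golgi (214 and 133 CPM). Of these 12, Sec22a (4.89 and 6.97 CPM) was past 1.5-fold towards replicate 2 and Vti1a towards replicate 1. Over all genes with a mean of at least 1 CPM the shares were 12.6% and 14.3%. The counting intervals of the log2 ratios of Sec22a (0.60, interval 0.30 to 0.91) and Vti1a (-0.59, interval -0.65 to -0.54) reach across the 1.5-fold line. The 5 Munc18-type genes of other steps all passed detection, none was past 1.5-fold, and their median was 31.1 CPM. Vps33a, which acts at late endosomes and lysosomes, was at 116 and 115 CPM and Vps45, which acts at early endosomes and the Golgi, at 36.2 and 36.7 CPM. Of 14 priming factors, chaperones and regulators, 13 were detected and 3 were past 1.5-fold towards replicate 1, against 14.3% of all genes with a mean of at least 1 CPM. These were Prrt2, a presynaptic regulator of fusion (441 and 266 CPM), and the Munc13 relatives Unc13c (10.4 and 5.69 CPM) and Baiap3 (1.88 and 1.10 CPM), named after their values were seen. The log2 intervals of Unc13c (-1.05 to -0.52) and Baiap3 (-1.32 to -0.06) reach across the 1.5-fold line, and that of Prrt2 (-0.67 to -0.60) does not. The general chaperone Hspa8 was at 552 and 765 CPM, and Unc13d, the priming factor of cytotoxic cells, was below detection with 22 and 7 counts.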

How the data were processed

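The deposited files hold 1 count per gene symbol and library, whole numbers that the authors did not normalise. STAR 2.0.0e, HTSeq and genome build mm10 are named per the submitters' processing notes; for the annotation and strandedness, the choice is not given in the sources used here. HTSeq's summary lines and the empty line unknown were kept out of the totals; 65.0% and 64.9% of all counts were on gene lines. CPM is counts per 1000000 counts on gene lines. Exon, transcript and coding lengths, positions and sequences came from GENCODE M21 (GRCm38), with 23850 symbols matched, 734 of them by an older symbol in RefSeq. A search for shared stretches of 50 bases covered annotated transcripts on both strands and not the whole genome. Log2 ratios used edgeR 4.0.16 TMM factors and a prior count of 2. Intervals (exact Clopper-Pearson, 95%) and the 3-count limit cover counting error only, and not the spread between libraries. They treat reads as independent. The reads carry no molecular identifiers, so duplicates, which would make the intervals too narrow, were not removed from the counts used here. The ratio was tested on simulated data with counting error alone, and that test does not cover the wider spread between these libraries. No protein table was used. The members and lists were chosen with earlier results of these data known. Results for some genes are not reported here, and counts over the members include them. Every other member is named; pairs and pathway lists were fixed in the design, and of the pathway lists the 2 highest reported genes and any below 1 CPM are named. Alternatives changed the scaling, the detection minimum, the length measure, the prior count and the threshold, or left out a library.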

Additional observations from a re-analysis of the deposited data

Results flagged for a closer look

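Counts outside the gene lines entered no comparison and are given because they hold signal. Per library, 16.7% (replicate 1) and 17.0% (replicate 2) of all counts lay over no annotated feature, and 15.7% and 15.5% came from reads with several alignments. Reads over several genes made up 2.61% and 2.56%; members whose exons overlap another gene, such as Stx18, Snap47 and Stx4a, can lose reads to this class. With 2 libraries no single one can be called outlying.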

How the results depend on the processing

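The number of detected members was 33 to 37 under every setting tried, against 34. The median member level of 57.3 CPM became 57.6 with TMM totals, 57.6 with DESeq2 size factors and 60.9 without Rn45s and Lars2, and 50.5 to 50.8 in a single library. Without length correction the ratios were 2002 for Snap25 to Snap23, 74.0 for Snap25 to Snap47, 51.9 for Vamp2 to Vamp1, 11.5 for Cplx2 to Cplx1, 4.94 for Napb to Napa and, in the opposite direction, 0.870 for Stxbp5l to Stxbp5. Per kilobase of coding sequence, a setting added after the data were seen, they were 2041, 148, 52.8, 11.5, 4.89 and 0.819. With the longest transcript, Snap25 to Snap23 was 1120.1 and the other 5 pairs moved by less than the SD between libraries. Members past 1.5-fold towards replicate 2 numbered 4 of 37 with every gene counted in both libraries. Those that joined were Stxbp3b (2 and 7 counts) and Stx11 (2 and 5 counts), both near the floor. At a 2-fold threshold 1 of 34 members was past it towards replicate 2 and 0 towards replicate 1, against 10.3% of all genes in either direction. Towards replicate 1, 4 of 34 were past 1.5-fold with library totals, where Stxbp2 (-0.66) joined. The share of all genes was not counted with every counted gene or with library totals. With 2 libraries, leaving 1 out moves a single level or ratio by less than its SD by construction, and no ratio between libraries is left. No paired analysis was possible because there is 1 group. The coding length from the protein table was not run. The 8 undetected members had 0 to 25 counts per library, too few for the main comparison of the libraries.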
